A study of Arabidopsis thaliana with 6 samples.

Results

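Expansins of the growing shoot (EXPA4, EXPA8, EXPA9 and EXPB3) and expansins of root hairs (EXPA7 and EXPA18) were followed in dark-grown Arabidopsis thaliana seedlings from a spaceflight experiment. The members were taken by gene symbol from the probe sets that the array annotation assigns to a single gene. All 6 were found, each with 1 probe set, among 13355 genes measured in this way. They were chosen by the flight and ground values of these same arrays, so their differences between flight and ground are given as a description and without a test. Affymetrix ATH1-type arrays had been hybridised with RNA from shoots of the Landsberg (Ler-0) accession, a line that, as background, carries a mutation in the ERECTA gene affecting stem growth. The spaceflight group has 3 arrays and the ground control group has 3, numbered 2, 3 and 4 in both. The labels describe a single growth procedure for both groups, in darkness in canister hardware with Petri dish fixation units, followed by storage in RNAlater, and the age of the seedlings and the number pooled per array are not given in them. No mutant, transgene or chemical treatment is named for either group. The titles hold an unexplained letter, f on flight arrays and h on ground arrays, and what it stands for cannot be separated from the comparison. The division into shoot and root-hair type rests on what is known of the genes.

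Expansins are secreted proteins that loosen plant cell walls without cutting their polymers, acting best in acid walls, so that a cell under turgor can extend. The family has alpha-expansins (EXPA), beta-expansins (EXPB) and the expansin-like groups EXLA and EXLB, for which wall loosening has not been established. A seedling kept in the dark lengthens its hypocotyl almost wholly by cell expansion, a process in which expansins act together with enzymes that remodel xyloglucan and pectin. EXPA7 and EXPA18 are known from root hair cells, where they act in the outgrowth and elongation of the hair.

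Values are log2 expression values, and an array median lay between 2.15 and 2.24. No detection calls are at hand, so a reading near or below these medians cannot be called expressed or absent, and fold differences against such readings are imprecise. Separate dishes are not documented for the arrays of a group, so errors and p-values cover only the spread between these arrays and may be technical. Some arrays stood apart. The mean of the 3 measured seed storage genes was 2.46, 1.81 and 4.96 on flight replicates 2, 3 and 4, and 1.78, 8.44 and 8.53 on ground replicates 2, 3 and 4. Ground replicate 4 also had the lowest mean of hybridisation spike-ins, 9.61, against 10.13 to 10.20 on the other arrays. In limma with Benjamini-Hochberg adjustment over 22746 probe sets, 939 passed an adjusted p of 0.05 as higher in flight and 413 as lower, or 470 and 363 after centring each array on its spike-ins. A further 8730 of the tested probe sets carry no gene name here, so genes of the family and of the lists below may be on the array without being analysed. None of the listed root markers (0 of 16), root hair markers (0 of 8) or shoot meristem and epidermis markers (0 of 10) was among the named genes, so the labelled tissue could not be checked against them.

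The 3 shoot alpha-expansins stood far higher on every flight array than on any ground array. EXPA4 (AT2G39700) read 6.84, 6.69 and 7.04 in flight replicates 2, 3 and 4, and 3.95, 3.84 and 2.15 in ground replicates 2, 3 and 4. The flight arrays lay within 0.35 of each other, while the ground arrays spread over 1.80 because ground replicate 4 was low. Group means were 6.86 ± 0.18 for flight and 3.31 ± 1.01 for ground (SD, n = 3 each). The log2 change was 3.54 (SE 0.46), an 11.7-fold higher level, which ranked 5 from the top among the 13355 genes. The reading of ground replicate 4 lay just below its array median of 2.19, so this fold difference is imprecise too.

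EXPA8 (AT2G40610) read 5.27, 5.40 and 4.93 in flight and 2.34, 2.50 and 1.85 on the ground, in the same order of replicates. Its replicates were tight in both groups, at 5.20 ± 0.24 in flight and 2.23 ± 0.34 on the ground, and the lowest flight array was 2.43 above the highest ground array. The log2 change was 2.97 (SE 0.22), or 7.82-fold, with a rank of 19. The ground readings lay near the array medians, that of replicate 4 below its median, so this fold difference is imprecise. EXPA9 (AT5G02260) read 4.81, 4.34 and 4.04 in flight and 1.87, 2.13 and 1.38 on the ground. All 3 ground readings lay below the array medians and all 3 flight readings above them, so its log2 change of 2.60 (SE 0.26), or 6.08-fold, was taken against a level that may be background. It ranked 26.

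EXPB3 (AT4G28250), the beta-expansin of the set, differed less and varied more in flight. It read 4.81, 3.78 and 3.82 in flight and 2.38, 2.54 and 2.21 on the ground. Flight replicate 2 was 1.03 above the lowest flight array, and the ground arrays lay within 0.33 of each other, close to the array medians. The means were 4.14 ± 0.58 for flight and 2.38 ± 0.17 for ground (SD, n = 3 each), a log2 change of 1.76 (SE 0.29) or 3.38-fold, with a rank of 120.

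The root-hair expansins gave a different picture, with low readings throughout. EXPA7 (AT1G12560) read 0.96, 1.34 and 1.28 in flight and 1.18, 1.27 and 1.14 on the ground. The groups overlapped, with means of 1.19 ± 0.20 in flight and 1.19 ± 0.07 on the ground and a log2 change of 0.00 (SE 0.15). EXPA18 (AT1G62980) read 1.18, 1.40 and 1.55 in flight and 1.74, 1.89 and 1.45 on the ground, again with overlapping groups, and its log2 change was -0.32 (SE 0.17). Both genes were below the median of every array. At such readings a difference in transcript amount may not be detectable, and the data cannot say that the genes were silent or that flight left them alone.

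All 4 shoot expansins and 0 of the 2 root-hair expansins had flight arrays entirely above the ground arrays, an arrangement seen in 14.2% of all probe sets. The same 4 were called higher in limma, as were 4.13% of all probe sets. Because this contrast chose the genes, nothing is read from either count. In RNA from whole shoots, a change in the share of cells that express a gene and a change in transcript per cell cannot be told apart.

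**Figure D1:**
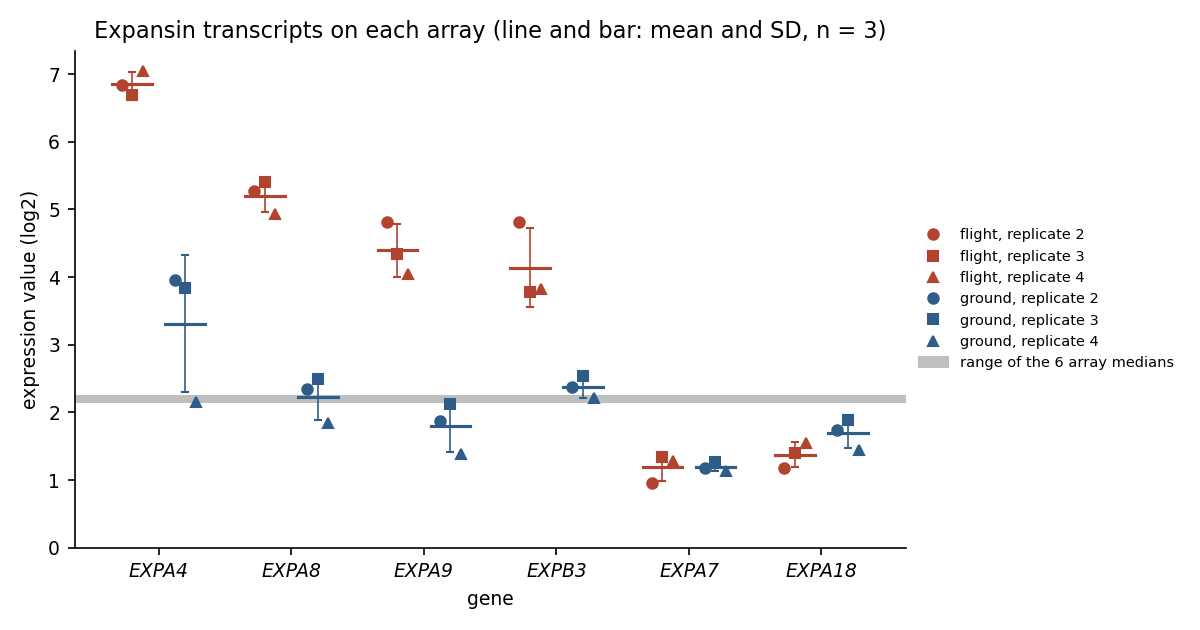
Expression values (log2, vertical axis) of the 6 expansins on each array, flight in red to the left of ground in blue, with replicate numbers as symbols, group means as lines, SD as bars and the range of array medians as a grey band. EXPA4, EXPA8, EXPA9 and EXPB3 have every flight array above every ground array, while EXPA7 and EXPA18 lie below the band on all 6 arrays.

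Within the ground group the 4 shoot expansins had their lowest reading on the same array. Averaged over the 4 genes, the values were 5.43, 5.05 and 4.96 in flight replicates 2, 3 and 4, and 2.63, 2.75 and 1.90 in ground replicates 2, 3 and 4. Ground replicate 4 gave the lowest reading of each of the 4 genes, most of all for EXPA4, and it is also the array with low spike-ins. Without it the log2 changes were 2.96 for EXPA4, 2.78 for EXPA8, 2.40 for EXPA9 and 1.67 for EXPB3, and after spike-in centring they were 3.39, 2.81, 2.45 and 1.61 in that order. That centring lowered the median change over all probe sets to -0.17, against -0.02 as deposited. Among flight arrays the order was not shared: EXPA9 and EXPB3 were highest in replicate 2, EXPA8 in replicate 3 and EXPA4 in replicate 4.

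Seed storage transcripts differed strongly among these arrays. Ground replicates 2, 3 and 4 had seed storage means of 1.78, 8.44 and 8.53 and shoot expansin means of 2.63, 2.75 and 1.90. With the seed storage mean as a covariate, the log2 changes were 3.21 for EXPA4, 2.83 for EXPA8, 2.48 for EXPA9 and 1.7 for EXPB3. In the same fit they were 0.01 for EXPA7 and -0.31 for EXPA18. Whether the seed storage difference has a part in the expansin values was not tested. PAP85 (AT3G22640), a vicilin-like storage protein gene, read 1.90, 1.30 and 7.38 in flight and 1.54, 10.91 and 10.57 on the ground. AT3G01570 read 1.32, 1.21 and 3.30 in flight and 1.5, 8.06 and 8.59 on the ground. OLEO3 (AT5G51210), an oleosin of seed oil bodies, read 4.15, 2.93 and 4.18 in flight and 2.31, 6.35 and 6.43 on the ground. Flight and ground overlapped for all 3 genes. On the 3 arrays with low seed storage means, flight replicates 2 and 3 against ground replicate 2, the log2 changes were 2.82 for EXPA4, 2.99 for EXPA8, 2.71 for EXPA9, 1.91 for EXPB3, -0.03 for EXPA7 and -0.45 for EXPA18. With 1 ground array this comparison has no ground spread of its own, and any call from it assumes that the lone array varies as the flight arrays do. For single genes only the log2 change on these arrays is given below.

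**Figure D2:**
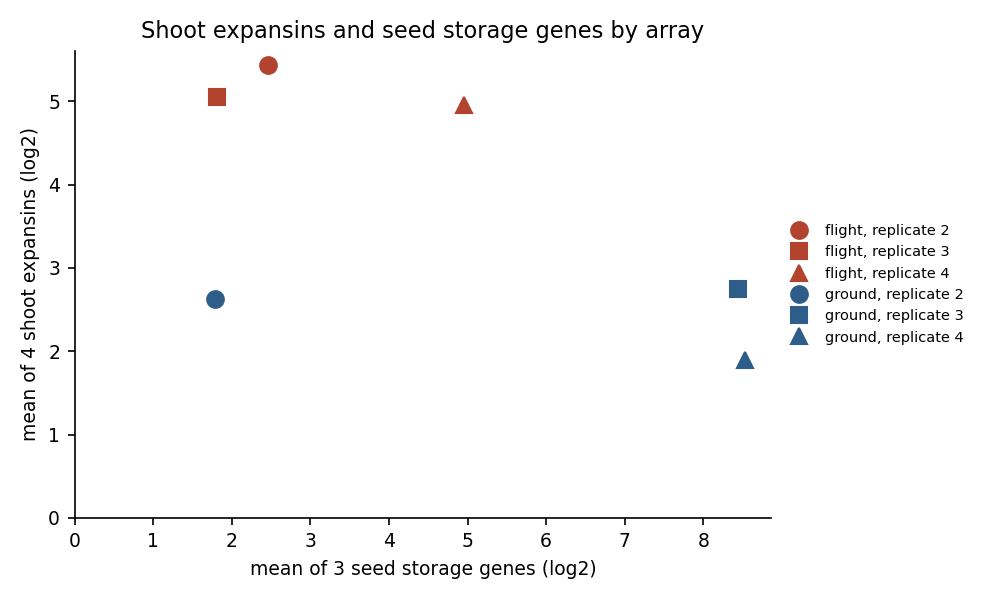
Mean of the 4 shoot expansins (log2, vertical axis) against the mean of the 3 seed storage genes (log2, horizontal axis), 1 point per array, flight in red and ground in blue. The flight arrays lie at 4.96 to 5.43 and the ground arrays at 1.90 to 2.75 on the vertical axis, and ground replicate 2 has a seed storage mean near that of flight replicate 3, at 1.78 and 1.81.

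Among the other measured family genes, 1 passed the test, and it was lower in flight. Of 34 expansin and expansin-like genes in the reference gene table, 18 were named on a probe set of their own, and 9 of the 18 were below the array median on all 6 arrays. Among the 12 measured genes outside the described set, 0 were higher and 1 was lower in limma, against 4.13% and 1.82% of all probe sets, and 3 had an unadjusted p under 0.05, as did 21.0% of all probe sets. Their median log2 change was 0.04, beside -0.02 over all probe sets tested. The log2 changes of the 12 ran from -1.75 to 0.89.

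EXLB1 (AT4G17030), the only measured gene of the expansin-like B group, was the one that fell. It read 2.21, 1.45 and 1.30 in flight and 3.56, 2.67 and 4.00 on the ground. All ground arrays lay above all flight arrays, with means of 1.66 ± 0.49 for flight and 3.41 ± 0.68 for ground (SD, n = 3 each). The log2 change was -1.75 (SE 0.38), with an adjusted p of 0.0434 in limma. The call depended on which arrays were used. The adjusted p was 0.0631, 0.158 and 0.147 without flight replicates 2, 3 and 4, 0.0732 and 0.0947 without ground replicates 2 and 4, and 0.0898 with the seed storage mean as a covariate (0.0141 to 0.158 over all alternatives), while the direction held in each. On the 3 arrays with low seed storage means, 1 of them from the ground, the log2 change was -1.72.

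The alpha-expansins EXPA15 and EXPA20 had positive log2 changes that did not pass the test. EXPA15 (AT2G03090) read 3.86, 3.62 and 3.58 in flight and 2.57, 3.47 and 2.36 on the ground, with a log2 change of 0.89 (SE 0.29) and an adjusted p of 0.136 in limma. Ground replicate 3 came within 0.11 of the lowest flight array, and without it the log2 change was 1.22 with an adjusted p of 0.0196. With any other array left out EXPA15 missed the threshold, at an adjusted p of 0.223 to 0.324. It passed in 0 of the 8 alternatives that kept all arrays. EXPA20 (AT4G38210) read 3.16, 3.08 and 3.25 in flight and 2.83, 2.62 and 2.65 on the ground, groups that did not overlap, with a log2 change of 0.46 (limma adjusted p 0.106). The expansin-like gene EXLA3 (AT3G45960) had a log2 change of 0.42 (limma adjusted p 0.356) and overlapping groups.

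EXLA1 (AT3G45970), another expansin-like A gene, was above the median on all 6 arrays, and its groups overlapped. It read 6.41, 6.03 and 5.96 in flight and 6.24, 6.05 and 6.45 on the ground, with a log2 change of -0.12 (SE 0.18). The remaining 7 genes, EXPB5, EXPA16, EXPA21, EXPB2, EXPB1, EXLA2 and EXPA24, were below the medians of all arrays, with log2 changes of -0.29 to 0.23. Probe sets shared by a pair of genes, which cannot be assigned to either, had log2 changes of 0.02 for EXPA22 and EXPA26 and 0.24 for EXPA23 and EXPA25, also at readings of 1.12 to 1.53.

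**Figure D3:**
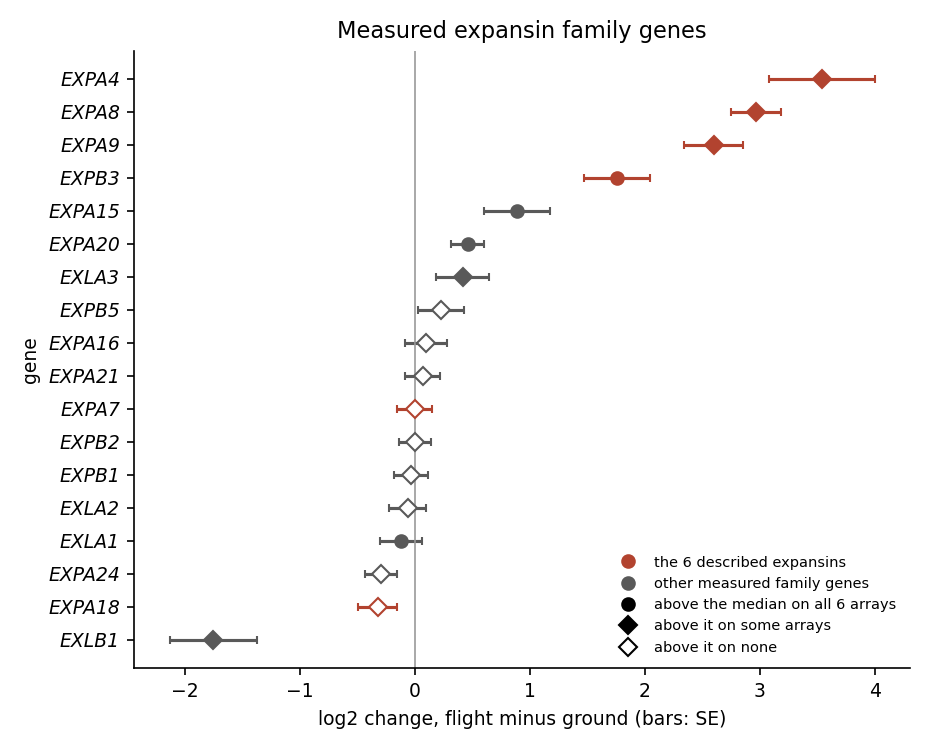
Log2 change, flight minus ground (horizontal axis, bars are SE), of the 18 measured expansin family genes, with the 6 described expansins in red. EXPA4, EXPA8, EXPA9 and EXPB3 lie at 1.76 to 3.54, EXLB1 at -1.75, and the genes with open symbols, which were below the array medians on every array, lie near 0.

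Other genes of hypocotyl elongation were examined from a list of 72 wall, growth and hormone genes, of which 9 were measured. In limma 4 of the 9 rose and 0 fell, with a median log2 change of 0.97, beside 4.13% higher, 1.82% lower and a median of -0.02 over all probe sets. The list was chosen with earlier results of these data known, so nothing is read from this count. THE1 (AT5G54380), a receptor kinase that monitors wall integrity and restrains hypocotyl growth when cellulose is deficient, read 5.68, 5.58 and 5.48 in flight and 3.62, 3.45 and 3.36 on the ground. Both groups were tight, and the log2 change was 2.11 (SE 0.14) with an adjusted p of 0.00219 in limma. COB (AT5G60920), a membrane-anchored protein needed for oriented cellulose deposition, read 7.78, 8.19 and 7.85 in flight and 6.35, 6.66 and 6.23 on the ground. It rose by 1.53 (SE 0.18, limma adjusted p 0.0076).

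The other 2 risers belong to the xyloglucan endotransglucosylase/hydrolase (XTH) family, whose enzymes cut xyloglucan and may or may not rejoin it. XTH32 (AT2G36870) rose by 1.90 (limma adjusted p 0.00905), at 3.61, 4.27 and 3.46 in flight and 2.11, 1.85 and 1.66 on the ground. THE1, COB and XTH32 passed with any 1 array left out. On the 3 arrays with low seed storage means, 1 of them from the ground, their log2 changes were 2.01, 1.64 and 1.82. XTH16 (AT3G23730) rose by 0.97 (limma adjusted p 0.0175) at readings of 2.34 to 2.60 in flight and 1.32 to 1.66 on the ground. It missed the threshold without flight replicate 2 (0.0685), 3 (0.0707) or 4 (0.0619), once arrays were centred on spike-ins (0.105) and with seed storage as a covariate (0.0558). On the low seed storage arrays, with 1 ground array, the log2 change of XTH16 was 1.06. XTH19 differed by 1.95 (limma adjusted p 0.0814), and ground replicate 3, at 6.35, was the array nearest to flight; without it the adjusted p was 0.0207. XTH19 also passed after spike-in centring (0.0295) and with dim probe sets left out (0.0451). These were 2 of 8 alternatives that kept all arrays, and it missed with the replicate block (0.106) and the seed storage covariate (0.154). With any other array left out it missed too, at 0.116 to 0.234. On the low seed storage arrays, with 1 ground array, its log2 change was 1.78.

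Members of the list whose groups overlapped included FER (AT3G51550), the FERONIA receptor kinase that binds RALF peptides, at 8.12, 7.93 and 7.67 in flight and 8.06, 8.07 and 8.05 on the ground. Its log2 change was -0.15 (SE 0.16). The auxin-induced homeodomain gene HAT2 had a log2 change of -0.10, XTH18 one of 0.32 and XTH20, below all array medians, one of -0.06.

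**Figure D4:**
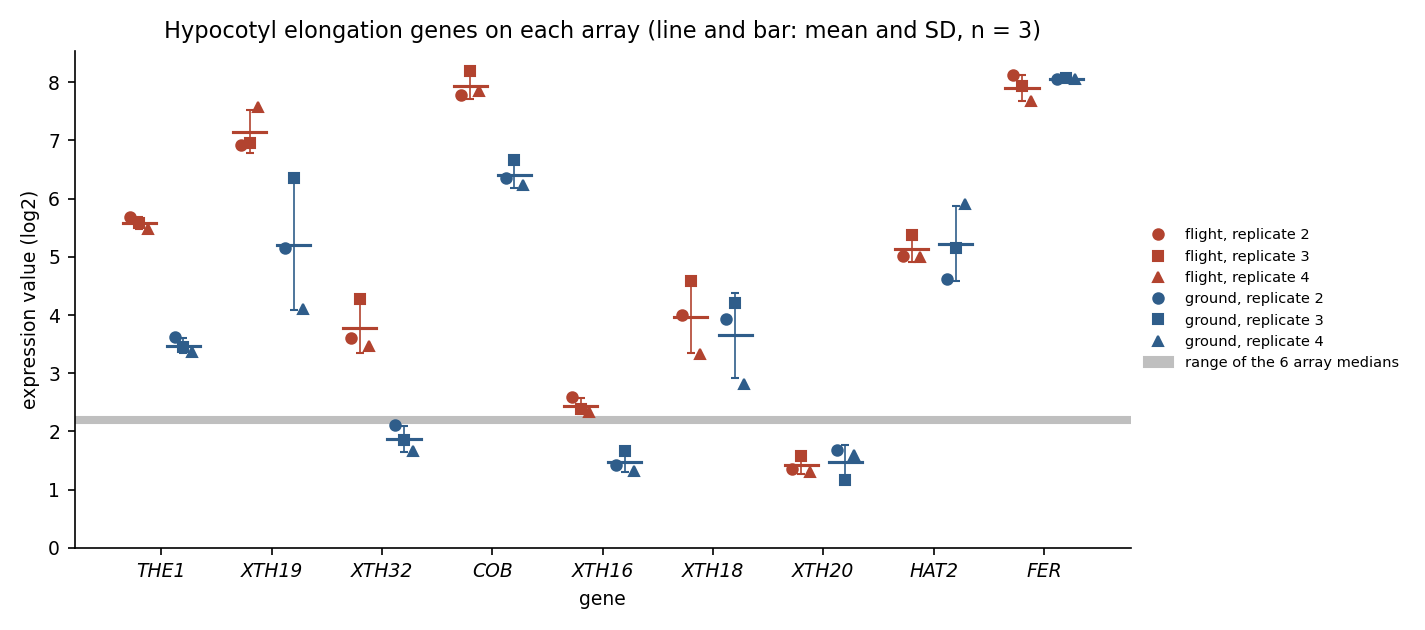
Expression values (log2, vertical axis) of the 9 measured hypocotyl elongation genes on each array, flight in red to the left of ground in blue, with means as lines, SD as bars and the range of array medians in grey. THE1, XTH19, XTH32, COB and XTH16 have all flight arrays above all ground arrays, as do 14.2% of all probe sets, while XTH18, XTH20, HAT2 and FER overlap. XTH19 was not called in limma. The list was chosen with earlier results known, so nothing is read from how many genes separate.

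Beside EXPA7 and EXPA18, a list of 55 root hair genes was examined, of which 3 were measured, too few to describe a root hair program. In limma 0 of the 3 were called, and 0 had an unadjusted p under 0.05, against 4.13% called higher, 1.82% called lower and 21.0% with such a p among all probe sets. With 3 genes nothing is read from these counts. SCN1 (AT3G07880), a regulator of the small GTPases that place the hair, read 4.07, 3.85 and 4.03 in flight and 3.49, 3.26 and 4.03 on the ground, with a log2 change of 0.39 (adjusted p 0.368). For CSLD2, a cellulose synthase-like gene of tip growth, the difference was -0.23 (limma adjusted p 0.544), and for TRY, a small MYB protein of epidermal patterning, 0.14 (limma adjusted p 0.805). The groups overlapped for each of them.

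To see which transcripts had the profile of the shoot expansins, each gene was centred on its own mean over the 6 arrays, and genes were ordered by the root mean square difference from the mean profile of EXPA4, EXPA8, EXPA9 and EXPB3. Among the 4 themselves, EXPA8 and EXPA9 were the closest pair, at 0.26 log2 units, and EXPA4 and EXPB3 the farthest, at 1.08. Of 5990 other genes with a mean above the median probe set, the nearest were AT3G13980 (0.18), SAH7 (0.20), WLIM2a (0.25), TUB1 (0.28) and AT2G48130 (0.28). WLIM2a encodes a LIM-domain protein that binds actin filaments, and TUB1 a beta-tubulin.

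Each of these 5 genes had all flight arrays above all ground arrays, like the profile they were chosen for. AT3G13980, the nearest, read 5.28, 5.41 and 5.20 in flight and 2.82, 3.13 and 2.15 on the ground. TUB1 (AT1G75780) read 7.47, 7.32 and 7.09 in flight and 5.31, 4.54 and 4.29 on the ground. The log2 changes of the 5 ran from 2.32 to 2.59, and ground replicate 4 was the lowest array for each. All values come from the same 6 arrays, so likeness here includes whatever the arrays share, and it is a description.

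The mean profile of EXPA7 and EXPA18 was almost flat, and the genes nearest to it carry little information. They were AT5G09450 and AT1G47660 (0.03 each), AT2G29360 and AT1G33813 (0.04 each) and AT4G01890 (0.05), out of 13349 genes, with log2 changes of -0.19 to -0.13. EXPA7 and EXPA18 differed from each other by 0.19 and from the shoot expansins by 0.99 to 1.99 on the same measure.

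**Figure D5:**
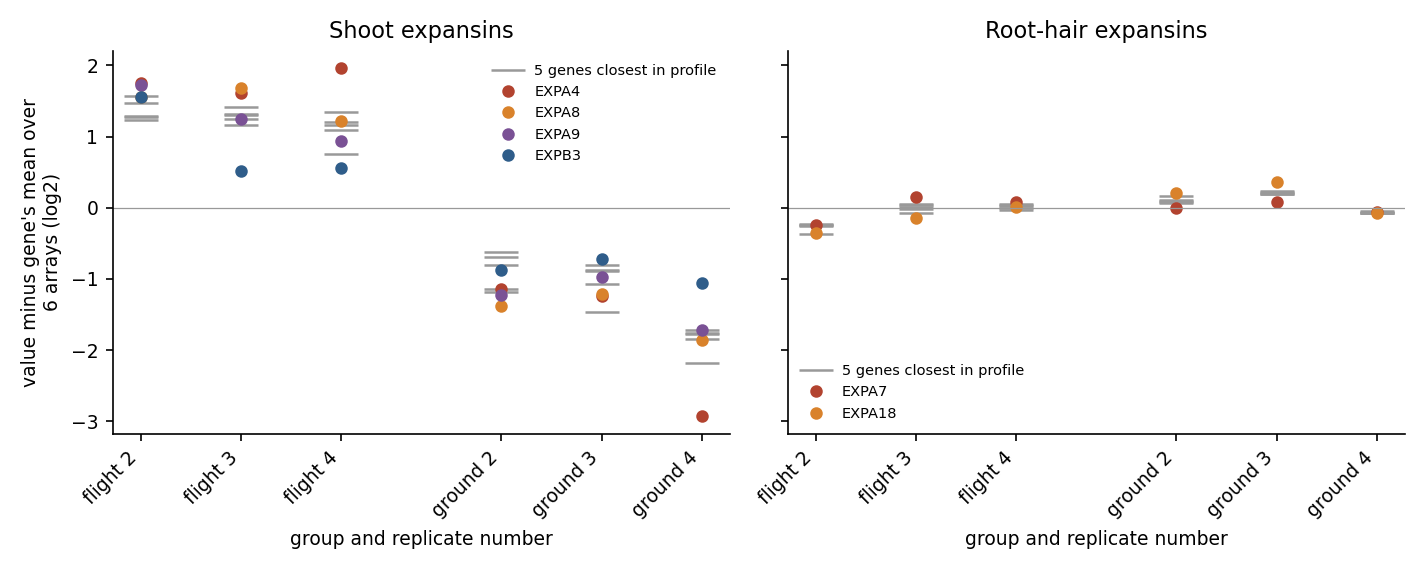
Value minus the gene's own mean over 6 arrays (log2, vertical axis) for each array (horizontal axis), with the shoot expansins on the left panel, the root-hair expansins on the right, and the 5 genes closest to each mean profile as grey bars. The shoot expansins lie at 0.52 to 1.96 in flight and at -2.93 to -0.72 on the ground, and the root-hair expansins stay between -0.36 and 0.36.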

How the data were processed

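The values are those of the series' deposited table of 22810 probe sets on 6 arrays, taken as log2 expression values as deposited by the authors; the log base was read from their range. Per the submitters' processing notes the tools were RMA, PLIER and MAS5, without saying which one produced this table, its background correction or any filter. Per the labels' protocols, amplified RNA carried a biotin label. No further normalization was applied.

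After 64 control probe sets were left out, 22746 were tested with limma 3.58.1 in R 4.3.3 (lmFit, eBayes, two-sided, no covariates, 3 arrays against 3), with Benjamini-Hochberg adjustment over all of them and a threshold of 0.05. SE are limma's moderated errors. Single-gene probe sets (13513) were named through RefSeq (TAIR10.1) by gene identifier (13436) or locus tag (48), and 29 kept their symbol; for a gene with several, that with the highest mean was used. Tested on simulated data for this comparison over 22746 probe sets, the procedure recovered 45% of log2 differences of 1 and 83% of those of 2.

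The members, lists and alternatives were chosen with earlier results of these data known. Genes named outside the members are family genes that were called or had the 4 largest changes, called genes of each list, and the 5 nearest profiles; EXLA1, FER and the remaining list genes were named after their values were seen. Alternatives were a replicate block, array weights, quantile normalization, median and spike-in centring, a filter on dim probe sets, a robust trended prior, a seed storage covariate, each array left out, the 3 arrays low in seed storage, and thresholds of 0.01 and 0.1. The listed epidermis symbol FDH now names another gene and was left out. Plots used matplotlib 3.10.9 (Python 3.11.15).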

Additional observations from a re-analysis of the deposited data

How the results depend on the processing

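Over the alternatives that kept all arrays, the log2 change was 3.21 to 3.54 for EXPA4, 2.81 to 2.97 for EXPA8, 2.45 to 2.60 for EXPA9, 1.61 to 1.76 for EXPB3, -0.16 to 0.04 for EXPA7 and -0.47 to -0.30 for EXPA18, and with 1 array left out 2.96 to 3.86, 2.78 to 3.10, 2.40 to 2.78, 1.42 to 1.94, -0.08 to 0.11 and -0.44 to -0.22 in that order. The values that moved by more than the SD between replicates were EXPA4 at 2.82 on the arrays low in seed storage, and EXPA7 at -0.16 after spike-in centring; the cause was not tested. With each member on 1 probe set, averaging probe sets could change nothing and was not run, and EXPA7 and EXPA18 have no value once dim probe sets are left out. The 1352 probe sets called became 833 once centred on spike-ins, 716 with seed storage as covariate, 633 on the arrays low in seed storage (2 flight arrays against 1 ground array, which is assumed to vary as the flight arrays do), 258 at an adjusted p under 0.01 and 2282 under 0.1. With 1 array left out the count ran from 271 to 1906, and was 451, 271 and 441 without flight replicates 2, 3 and 4 and 796 without ground replicate 4. Of the 12 other family genes, 0 were called with the covariate, on the arrays low in seed storage or at an adjusted p under 0.01 (3, 2 and 3 with an unadjusted p under 0.05 in limma), and 0 to 2 with 1 array left out. The list of hypocotyl elongation genes had 3 to 5 calls and the root hair list 0 under every alternative run. Whether the replicate numbers pair the arrays was not settled. Deviations from group means correlated at 0.20, -0.03 and 0.27 between same-numbered arrays. Flight replicates 2 and 4 correlated best with the ground array of their own number, while flight replicate 3 correlated best with ground replicate 2 (0.22). With the replicate block 1106 probe sets were called, and EXLB1 had an adjusted p of 0.0463. The number of arrays, and the nearness of many family genes to the array medians, limit what could be detected.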
